A study of Rattus norvegicus and Mus musculus with 74 samples.

Results

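The 9 genes described here, Snap25, Syt1, Stx1a, Vamp2, Syn2, Rims1, Rims2, Bsn and Cplx2, encode parts of the machinery that releases neurotransmitter from synaptic vesicles. They were chosen by name, with earlier results of these data known. All 9 were listed both in the rat table of 20110 genes and in the mouse table of 23362 genes. The study profiled 4 histone marks in brain cortex by chromatin immunoprecipitation and sequencing (ChIP-seq). In Sprague-Dawley rats the groups were animals exposed before birth to valproate (VPA) and then given TAK-418, VPA-exposed animals given vehicle, and healthy animals given vehicle. In C57BL/6J mice the groups were animals exposed before birth to poly I:C and then given TAK-418, poly I:C-exposed animals given vehicle, and healthy animals given vehicle. Each group had 3 libraries per mark, which makes 36 libraries per species; no label gives a dose, an age or a sex. TAK-418 inhibits the histone demethylase LSD1, VPA is an anticonvulsant that also inhibits histone deacetylases, and poly I:C is a synthetic double-stranded RNA that mimics a viral infection.

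At a nerve terminal, the vesicle SNARE protein VAMP2 (Vamp2) zips together with the plasma membrane SNAREs syntaxin-1A (Stx1a) and SNAP-25 (Snap25) to pull a vesicle against its target membrane. Synaptotagmin-1 (Syt1) senses the calcium that triggers fusion, and complexin-2 (Cplx2) binds the assembled SNARE complex and controls when fusion proceeds. Synapsin-2 (Syn2) tethers vesicles in the reserve pool, while RIM1 (Rims1), RIM2 (Rims2) and bassoon (Bsn) are scaffolds of the active zone, where RIMs link vesicles to calcium channels. H3K4me3 and H3K9Ac are found at active promoters, H3K27me3 is the mark of Polycomb repression, and H3K9me3 marks heterochromatin.

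RefSeq promoter windows of 300 bases, from 250 before to 50 after the gene start, were found for 7 of the 9 rat genes; Snap25 and Rims2 had none. The windows of 4 genes are printed because they span the CpG-rich and CpG-poor promoters of the set and the genes on which the acetylation results turn. Capitals mark the GC box GGGCGG, which is read by Sp factors, or its reverse complement CCGCCC. The windows are from assembly GRCr8, while the ChIP-seq tables are on rn5, so the windows were not overlaid on the regions.
Rims1: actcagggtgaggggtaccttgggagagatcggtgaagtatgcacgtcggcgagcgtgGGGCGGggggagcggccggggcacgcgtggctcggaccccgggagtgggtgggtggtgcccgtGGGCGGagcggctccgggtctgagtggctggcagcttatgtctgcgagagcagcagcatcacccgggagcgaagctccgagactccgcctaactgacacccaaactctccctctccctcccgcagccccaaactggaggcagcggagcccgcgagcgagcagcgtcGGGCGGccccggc
Syn2: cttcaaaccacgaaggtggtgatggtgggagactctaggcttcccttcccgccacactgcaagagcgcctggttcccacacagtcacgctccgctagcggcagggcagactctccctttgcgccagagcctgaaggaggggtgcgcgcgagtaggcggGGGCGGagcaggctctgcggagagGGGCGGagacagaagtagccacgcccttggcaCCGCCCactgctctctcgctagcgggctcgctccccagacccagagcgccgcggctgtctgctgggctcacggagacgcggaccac
Vamp2: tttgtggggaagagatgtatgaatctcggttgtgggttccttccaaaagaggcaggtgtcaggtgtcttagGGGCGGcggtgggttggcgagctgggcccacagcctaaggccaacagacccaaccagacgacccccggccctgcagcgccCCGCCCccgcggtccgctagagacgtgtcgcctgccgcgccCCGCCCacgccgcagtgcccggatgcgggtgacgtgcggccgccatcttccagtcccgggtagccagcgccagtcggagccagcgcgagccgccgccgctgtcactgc
Cplx2: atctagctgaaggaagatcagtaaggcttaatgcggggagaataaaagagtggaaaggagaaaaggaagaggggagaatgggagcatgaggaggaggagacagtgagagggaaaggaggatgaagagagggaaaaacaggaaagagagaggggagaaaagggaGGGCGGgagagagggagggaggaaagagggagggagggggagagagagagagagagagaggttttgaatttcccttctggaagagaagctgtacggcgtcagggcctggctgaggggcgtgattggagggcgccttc
The Rims1 window lies at chr9:32692723-32693022 on the minus strand, the Syn2 window at chr4:149858669-149858968 on the plus strand, the Vamp2 window at chr10:54292539-54292838 on the plus strand and the Cplx2 window at chr17:10236704-10237003 on the minus strand.

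All 7 windows held at least 1 GC box, against 33.1% of the 33469 rat windows. The number of CpG dinucleotides differed widely: 39 in Bsn, 31 in Vamp2, 30 in Rims1, 28 in Stx1a and 25 in Syn2, but 8 in Syt1 and 6 in Cplx2, where the median window had 7. The CCAAT box (CCAAT or ATTGG) was in the windows of Stx1a and Cplx2, against 37.5% of all windows. The left arm of the element bound by the neuronal repressor REST (TTCAGCACC, 0.356% of all windows), its right arm (GGACAG, 21.7%), the cyclic AMP response element (TGACGTCA, 1.83%) and the TATA box (TATAAA, 14.2%) were in none of the 7 windows on either strand.

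The tables give a mean signal and a highest signal for each merged region and library, and whether an interval (a called peak) was present. Each gene took the listed region with the highest mean over the 36 libraries. Some libraries stood apart over all gene regions. In rat H3K9Ac, VPA vehicle library 3 had a median signal of 6.29, against 10.3 and 11.3 in the other VPA vehicle libraries. In rat H3K4me3, TAK-418 library 2 had 11.3, against 15.8 and 15.9 in the other TAK-418 libraries. In mouse H3K4me3, control library 1 had 10.1, against 5.54 and 5.97 in the other controls. Mouse H3K9me3 vehicle library 3 had an interval on 58.0% of the 9210 regions that carried H3K4me3 in all 9 libraries, against 0.56% to 8.60% in the other 8 H3K9me3 libraries. The library names carry the tag -dm, which is not explained, and neither a spike-in nor another scaling between libraries is stated. Whether a shift of a whole library is signal or scaling therefore cannot be told apart, and changes are given as deposited and beside the median of all genes. Changes are differences of log2(mean signal + 1), a call is a Benjamini-Hochberg adjusted p of at most 0.05 over all genes tested, and a gene was tested where at least 3 of the 9 libraries of a mark had an interval. Whether each library was made from its own animal is not stated, and the spread behind the p-values may be partly technical. The fit (limma) shares its estimate of spread across genes, although a shift of a whole library is common to them. The p-values as deposited may therefore claim more precision than 3 libraries per group can give. For counts with a library left out, the share of all genes called in that fit is not given. Such counts show how far a call rests on a library and do not set the members apart from other genes.

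The chosen regions were compact promoter peaks for some genes and long merged domains for others. In rat (rn5) the Rims1 region spanned 799 bp at chr9:27812800-27813599, the Rims2 region 5599 bp at chr7:78155600-78161199, the Snap25 region 6799 bp at chr3:136180600-136187399 and the Syn2 region 7399 bp at chr4:210324200-210331599, all with a promoter. The regions of Stx1a (36799 bp), Vamp2 (55399 bp) and Bsn (112799 bp) also covered neighbouring genes, among them Abhd11 with Stx1a, Per1 and Hes7 with Vamp2, and Gmppb, Rnf123, Mst1 and Apeh with Bsn. Values of those 3 genes are therefore shared with their neighbours, as are those of mouse Vamp2 (with Aurkb, Per1 and Hes7 among others) and mouse Bsn (with Dag1). The Cplx2 region was 52599 bp long and listed Cplx2 alone. In 7 of the 9 genes the region held a CpG island, in rat as in mouse (all but Snap25 and Syt1), against 60.2% of gene regions in each species.

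Syt1 differed between the species in which regions were listed with it. In mouse (mm10) its region, chr10:109000800-109013999, held the promoter and an H3K4me3 interval in 9 of 9 libraries. In rat no listed region held the Syt1 promoter: the chosen region, chr7:50197800-50200399, lay 90851 bp inside the gene with a control H3K4me3 mean signal of 1.26 ± 0.44 (SD, n = 3) and an interval in 0 of 9 libraries. Rat Syt1 was not tested, and its rat values do not describe its promoter. Mouse Stx1a is a similar case. Its chosen region (chr5:135048600-135156599, 107999 bp) lay downstream over Wbscr22, Dnajc30, Vps37d, Mlxipl and Tbl2, and its promoter region was chr5:135017200-135043199.

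In control cortex, the chosen regions of all members but rat Syt1 carried both active marks, with an H3K4me3 interval in every library. In control rats the mean H3K4me3 signal was highest over Rims1 (76.2 ± 28.2, SD, n = 3), at percentile 99.98 of all gene regions. Rims2 (35.1 ± 13.6), Snap25 (23.4 ± 2.55), Vamp2 (22.8 ± 5.44) and Syn2 (19.0 ± 3.90) followed, each overlapping its neighbour in the order. Stx1a (12.1 ± 1.79) lay below them without overlap, and Bsn (7.08 ± 1.21) and Cplx2 (6.30 ± 1.28) overlapped each other. Mean signal is an average over the region, so short regions rank high. By highest signal in the region the rat order was led by Vamp2 (234 ± 58.8) and Bsn (151 ± 38.7), and Rims1 (125 ± 47.0) was near Rims2, Snap25 and Syn2. All neighbours in that order overlapped down to Cplx2, the lowest of the 8 marked genes.

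H3K9Ac followed a like order in control rats, with Rims1 at 37.0 ± 6.64 (SD, n = 3), then Rims2, Vamp2 and Snap25 each at 12.7, Syn2 at 8.12, Stx1a at 6.70, Bsn at 5.98 and Cplx2 at 4.18. In control mice the range of H3K4me3 was narrower, from 25.2 ± 11.2 over Rims1, 24.2 ± 12.5 over Rims2, 24.1 ± 10.9 over Vamp2 and 21.8 ± 8.65 over Syt1 to 6.74 ± 2.21 over Stx1a and 5.95 ± 2.02 over Cplx2. Every neighbouring pair overlapped there, as control library 1 was high for every member. Mouse H3K9Ac was highest over Vamp2 (15.6 ± 4.49) and Rims1 (12.4 ± 3.69), and each neighbouring pair overlapped.

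**Figure D1:**
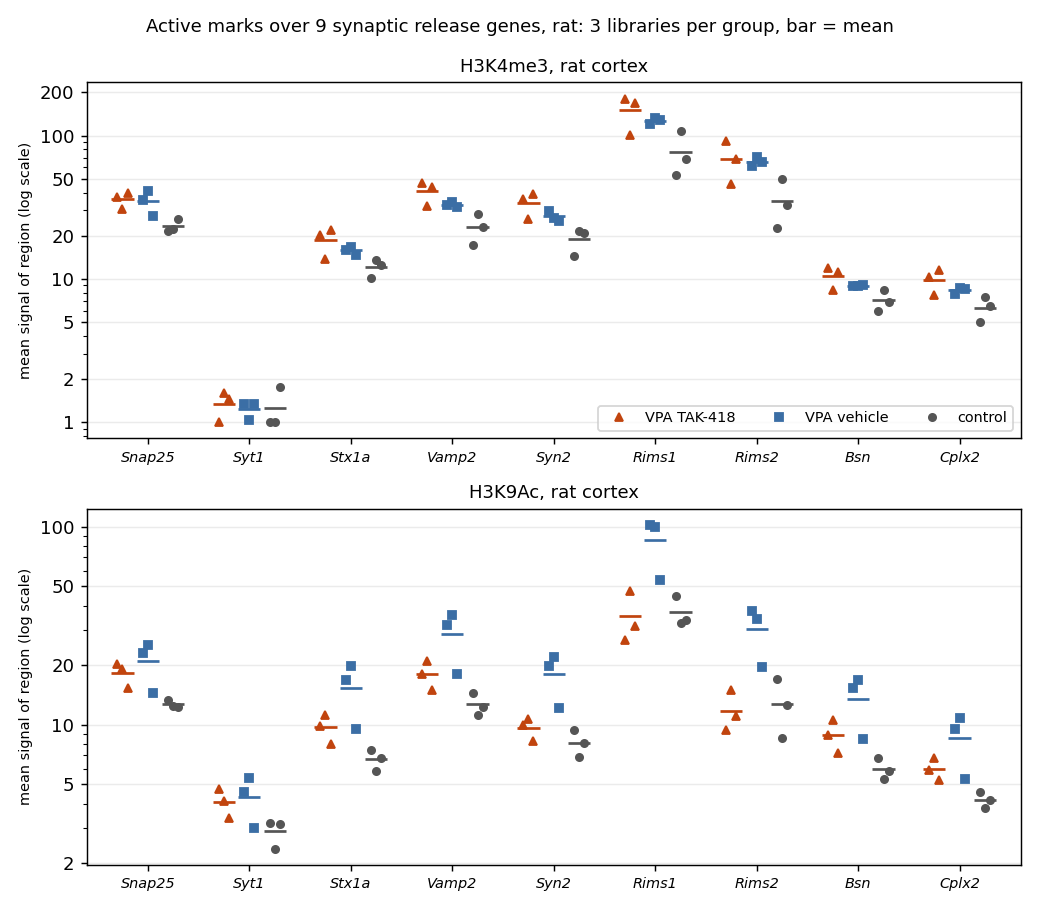
Mean H3K4me3 (top) and H3K9Ac (bottom) signal of each gene's region in rat cortex on a log scale, with 1 point per library and a bar at the mean of 3 libraries. For H3K9Ac, VPA vehicle libraries 1 and 2 lie above every TAK-418 and control library for all genes but Syt1. VPA vehicle library 3 does so as well only for Rims1, Rims2 and Syn2.

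The first comparison asks whether prenatal VPA, and TAK-418 given after it, went with a different H3K4me3 signal at these genes. In rat, the signal was higher over the 8 members tested in both VPA groups than in controls, about as for genes at large. Rims1 had 181, 101 and 168 in VPA TAK-418 rats, 119, 132 and 129 in VPA vehicle rats, and 52.9, 108 and 68.2 in control rats. All 3 vehicle libraries lay above all controls, while 1 TAK-418 library lay within the control range. Rims2 had 91.2, 46.0 and 69.0 in VPA TAK-418 rats, 61.3, 71.0 and 65.3 in VPA vehicle rats, and 22.8, 49.8 and 32.8 in control rats. Cplx2, with a lower signal, had 10.4, 7.70 and 11.5 in VPA TAK-418 rats, 7.89, 8.70 and 8.52 in VPA vehicle rats, and 4.97, 7.52 and 6.42 in control rats. In whole cortex, a higher signal in each cell and more cells that carry the mark cannot be told apart.

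In VPA vehicle rats against controls, Rims2 rose by a log2 change of 0.95 (SE 0.274, limma adjusted p = 0.0424), and it was the 1 member of 8 called higher; 1.64% of the 15287 genes tested were called higher. The log2 changes of the other 7 ran from 0.32 (Bsn) to 0.79 (Rims1). All 8 were higher without overlap, as were 63.3% of all genes, and the members' median of 0.53 stood beside 0.41 for all genes. Without TAK-418 library 2, which enters through the shared spread, 6 members were called, and without control library 2, 5 were called; without control 1, control 3, any vehicle library or TAK-418 library 1 or 3, none was called. In VPA TAK-418 rats against controls, all 8 were called higher, as were 85.8% of genes. The 8 members ran from 0.50 (Bsn) to 0.99 (Rims1, SE 0.326, limma adjusted p = 0.0066). Of these, 5 did not overlap the controls, against 57.6% of all genes, and the median of all genes was 0.61. The count of 8 called fell to 2 without TAK-418 library 1, to 3 without TAK-418 library 3 and to 4 without control library 1. After median centring or quantile normalization no member was called in either comparison, nor any gene (0%; 1894 to 2425 genes had an unadjusted limma p under 0.05), and Stx1a, Bsn and Cplx2 in both comparisons, with Snap25 in VPA TAK-418 rats against controls, then lay below 0, the lowest being Bsn at -0.12.

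Between VPA TAK-418 and VPA vehicle rats, none of the 8 members was called for H3K4me3, where 0.137% of genes were called and 798 had an unadjusted limma p under 0.05. The log2 changes ran from 0.01 (Rims2, 95% interval -0.53 to 0.55) to 0.29 (Syn2, -0.16 to 0.74), and their median of 0.20 stood beside 0.21 for all genes. After centring or quantile normalization all but Syn2 and Vamp2 lay below 0, from -0.01 to -0.20, and none was called. Every member's libraries overlapped between the 2 groups. The test does not show that the groups were alike, since each interval also takes in changes of 0.5 or more.

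Rat H3K9Ac was higher over the members in VPA vehicle rats than in controls. All 8 members tested were lower in VPA TAK-418 than in VPA vehicle rats, by -0.17 to -1.27 on the log2 scale. The median of all genes was -0.52, and 1.3% of genes had a higher mean. As deposited, Rims1, Rims2 and Syn2 were called lower, a count that rested on single libraries. After quantile normalization no member was called lower. Over Rims1, which ties vesicles to calcium channels, the H3K9Ac signal was 26.9, 47.2 and 31.6 in VPA TAK-418 rats, 102, 99.7 and 54.0 in VPA vehicle rats, and 44.6, 32.6 and 33.8 in control rats. Over its relative Rims2 it was 9.42, 14.9 and 11.1 in VPA TAK-418 rats, 37.3, 34.1 and 19.6 in VPA vehicle rats, and 17.1, 8.57 and 12.5 in control rats. For both genes, each VPA vehicle library lay above every library of the other 2 groups, and the TAK-418 and control libraries overlapped. Syn2 had 10.00, 10.8 and 8.27 in VPA TAK-418 rats, 19.8, 22.0 and 12.1 in VPA vehicle rats, and 9.38, 6.85 and 8.11 in control rats. Its VPA vehicle libraries again lay above all others; its TAK-418 mean (9.67) was above its control mean (8.12), while for Rims1 and Rims2 the TAK-418 mean was the lower.

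On the log2 scale, the SNARE genes had a smaller gap between the VPA groups than Rims1, Rims2 and Syn2, as did Bsn and Cplx2. Over Snap25 the H3K9Ac signal was 20.3, 19.1 and 15.3 in VPA TAK-418 rats, 23.0, 25.3 and 14.5 in VPA vehicle rats, and 13.3, 12.4 and 12.3 in control rats. Vamp2 had 18.1, 20.9 and 15.0 in VPA TAK-418 rats, 32.0, 35.6 and 18.1 in VPA vehicle rats, and 14.5, 11.3 and 12.2 in control rats. Stx1a had 9.91, 11.2 and 7.99 in VPA TAK-418 rats, 16.8, 19.7 and 9.51 in VPA vehicle rats, and 7.47, 5.85 and 6.77 in control rats. In all 3 genes both VPA groups lay above every control library and overlapped each other. Bsn ranged from 7.19 to 10.5 in VPA TAK-418 rats, 8.45 to 16.8 in VPA vehicle rats and 5.30 to 6.76 in control rats, and Cplx2 from 5.28 to 6.81 in VPA TAK-418 rats, 5.33 to 10.9 in VPA vehicle rats and 3.81 to 4.58 in control rats. Both genes showed the same order of groups as the SNARE genes.

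Against controls, all 8 members tested were called higher in VPA vehicle rats, as were 96.5% of the 15368 genes. All 8 lay above the controls without overlap, as did 94.3% of genes. The changes ran from 0.65 for Snap25 (SE 0.264, limma adjusted p = 0.0152) to 1.19 for Rims2 (SE 0.264, limma adjusted p = 0.000304). The members' median was 1.03 and that of all genes 0.88. Relative to the other genes, after median centring, only Vamp2 was called, at 0.21 (SE 0.0689, limma adjusted p = 0.0486), where 11.9% of genes were called higher. Snap25 then lay below the centre at -0.21 (limma adjusted p = 0.0515), so its direction depended on the scaling, as did those of Cplx2 (-0.02 after centring) and Rims1 (-0.06 after quantile normalization). After quantile normalization no member was called, against 0.735% of genes, with 4911 genes at an unadjusted limma p under 0.05.

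In VPA TAK-418 against VPA vehicle rats, Rims1 fell by 1.23 on the log2 scale (95% interval -1.79 to -0.68, limma adjusted p = 0.00584), with a ratio of mean signal of 0.413. Rims2 fell by 1.27 (-1.78 to -0.75, limma adjusted p = 0.00116, ratio 0.389) and Syn2 fell by 0.80 (-1.31 to -0.28, limma adjusted p = 0.0427, ratio 0.538). These 3 of 8 were called lower, against 10.4% of genes, and the same 3 lay lower without overlap, against 20.0% of genes. The other 5 had changes from -0.17 (Snap25, 95% interval -0.68 to 0.35, adjusted p = 0.55) to -0.59 (Vamp2, adjusted p = 0.071), and all genes had a median of -0.52; after centring, Vamp2, Stx1a, Bsn and Cplx2 lay from -0.08 to 0.10. After median centring, Rims1 (-0.73), Rims2 (-0.76) and Syn2 (-0.29) were again called lower, against 8.16% of genes, with limma adjusted p of 0.0103, 0.0122 and 0.0121. Snap25 was then called higher, at 0.34 (SE 0.07, limma adjusted p = 0.00998), against 9.21% of genes. After quantile normalization Snap25 alone was called, higher at 0.52 (SE 0.0794, limma adjusted p = 0.00747), against 3.14% of genes, while Rims2 was at -0.60 (adjusted p = 0.0571), Syn2 at -0.24 (0.0535) and Rims1 at -0.30 (0.209).

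The count of 3 rested on single libraries. As deposited, it was 8 without VPA vehicle library 3, 1 without VPA vehicle library 2 or TAK-418 library 3, and 0 without VPA vehicle library 1 or TAK-418 library 1. A fit of the 6 compared libraries alone called 0. Against controls, no member was called in VPA TAK-418 rats, and no gene was (0%; 1445 of 15368 had an unadjusted limma p under 0.05). There Rims1 was at -0.09 (95% interval -0.65 to 0.47), Rims2 at -0.08 (-0.59 to 0.44) and Syn2 at 0.23, while Snap25, Stx1a, Vamp2, Bsn and Cplx2 were at 0.43 to 0.49 and did not overlap the controls. Non-overlap of that kind was seen in 51.8% of genes, and the median of all genes was 0.36. Without VPA vehicle library 3, which enters through the shared spread, 5 members were called against controls.

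**Figure D2:**
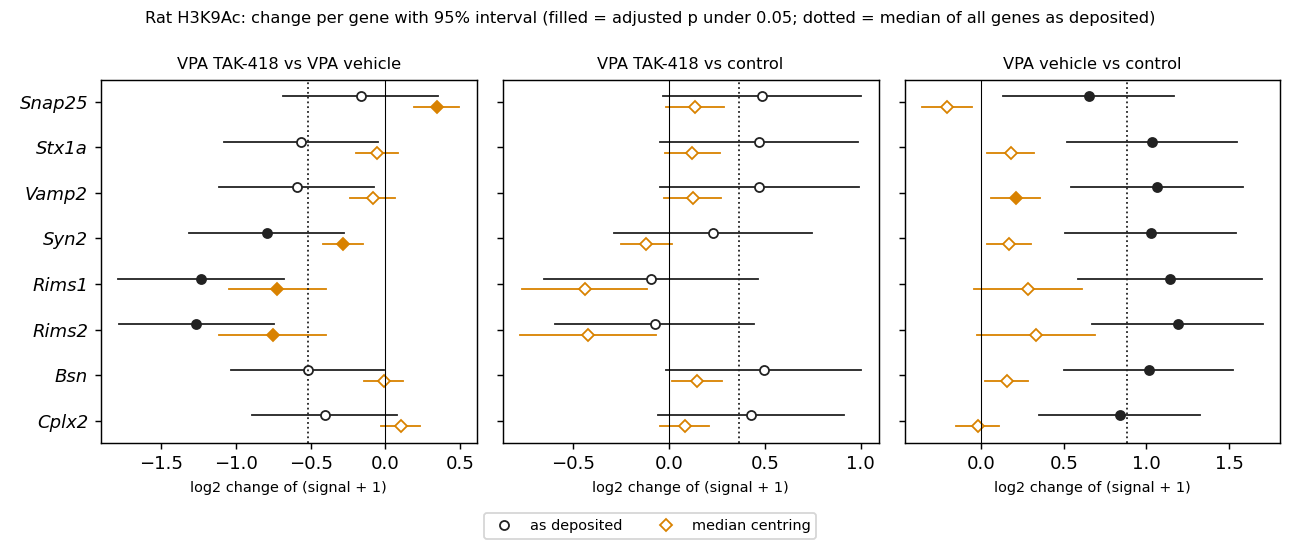
Log2 change of H3K9Ac signal (plus 1) for the 8 genes tested in rat, with 95% intervals, as deposited (circles) and after median centring (diamonds); filled symbols passed an adjusted p of 0.05 and the dotted line is the median of all genes as deposited. In TAK-418 against vehicle, Rims1 and Rims2 lie at -1.23 and -1.27 while Snap25 lies at -0.17, and after centring Snap25 lies at 0.34.

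In summed signal, markers of other cell types had the same order of groups over these rat libraries. The summed H3K9Ac signal of the neuron list (5 of 6 genes in the table) ranged from 40.4 to 54.4 in VPA TAK-418 rats, 51.2 to 89.8 in VPA vehicle rats and 33.1 to 40.0 in control rats. The astrocyte list (4 of 4) ranged from 20.0 to 27.6 in VPA TAK-418 rats, 21.4 to 39.4 in VPA vehicle rats and 16.0 to 18.5 in control rats. The microglia list (4 of 4) ranged from 19.1 to 28.1 in VPA TAK-418 rats, 21.4 to 42.3 in VPA vehicle rats and 15.7 to 18.4 in control rats. Genes not expected in cortex (3 of 4) had 7.19 to 11.4 in VPA TAK-418 rats, 7.80 to 14.6 in VPA vehicle rats and 6.70 to 7.02 in control rats. Their part in the members' values was not tested. In rank among all gene regions the lists did not share an order of groups. The neuron list had a median H3K9Ac percentile of 61.0 in VPA TAK-418, 63.3 in VPA vehicle and 53.5 in control rats. In the same order the astrocyte list had 39.8, 34.2 and 39.5 and the microglia list 34.1, 33.9 and 33.6. The list not expected in cortex had 24.9, 19.5 and 24.4.

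In mouse, H3K9Ac over the members was lower in both poly I:C groups than in controls, and the poly I:C groups were close to each other. Bsn, the active zone scaffold, had 6.70, 7.24 and 4.41 in poly I:C TAK-418 mice, 6.82, 4.03 and 6.50 in poly I:C vehicle mice, and 13.6, 10.7 and 7.53 in control mice. Vamp2 had 11.0, 10.5 and 7.13 in poly I:C TAK-418 mice, 11.1, 7.02 and 9.52 in poly I:C vehicle mice, and 20.4, 15.0 and 11.5 in control mice. Syt1, the calcium sensor, had 6.71, 7.30 and 6.42 in poly I:C TAK-418 mice, 7.70, 6.08 and 7.38 in poly I:C vehicle mice, and 15.9, 8.94 and 8.01 in control mice. For these 3 genes every poly I:C library lay below every control library, though control library 3 was near the poly I:C range.

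Against controls, 5 of 9 members were called lower in poly I:C vehicle mice, as were 67.2% of the 16663 genes. They were Bsn (-0.77, limma adjusted p = 0.0289), Vamp2 (-0.69, adjusted p = 0.0387), Snap25 (-0.55, adjusted p = 0.0446), Stx1a (-0.53, adjusted p = 0.0299) and Cplx2 (-0.52, adjusted p = 0.0386), on the log2 scale. Rims1 was at -0.60 (adjusted p = 0.0517), Rims2 at -0.54 (0.0547), Syt1 at -0.52 (0.0771) and Syn2 at -0.44 (0.102). In 7 of 9 the groups did not overlap (all but Snap25 and Syn2), against 75.8% of genes lower without overlap. The members' median of -0.54 stood beside -0.56 for all genes, and after median centring or quantile normalization no member and no gene was called (0%; 1176 and 710 genes had an unadjusted limma p under 0.05); all but Bsn, Vamp2 and Rims1 then came to lie above 0 under at least 1 of these scalings, Syn2 highest at 0.11 and 0.12. As deposited, all 9 were called without control library 3, 2 without TAK-418 library 1 or 2, and none without control library 1 or 2 or vehicle library 2 or 3.

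In poly I:C TAK-418 against poly I:C vehicle mice the H3K9Ac changes ran from -0.07 (Syn2, 95% interval -0.58 to 0.43) to 0.07 (Bsn, -0.45 to 0.60). No member and no gene was called (0%; 5 genes had an unadjusted limma p under 0.05). In poly I:C TAK-418 mice against controls the changes ran from -0.47 (Stx1a) to -0.69 (Bsn), with limma adjusted p of 0.0522 to 0.0665, so none of the 9 was called, nor any gene (0%; 13031 had an unadjusted p under 0.05). Of the 9, 8 lay below the controls without overlap, against 75.4% of genes, and the median of all genes was -0.53. Without control library 3 all 9 were called, and without vehicle library 2, 6 were. The summed H3K9Ac signal of the neuron list (6 of 6 genes) was 29.1 to 39.9 in poly I:C TAK-418 mice, 27.5 to 42.3 in poly I:C vehicle mice and 43.6 to 73.9 in control mice. That of the microglia list (4 of 4) was 9.91 to 16.1 in poly I:C TAK-418 mice, 10.2 to 14.9 in poly I:C vehicle mice and 16.4 to 24.3 in control mice. Their part in the members' values was not tested.

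**Figure D3:**
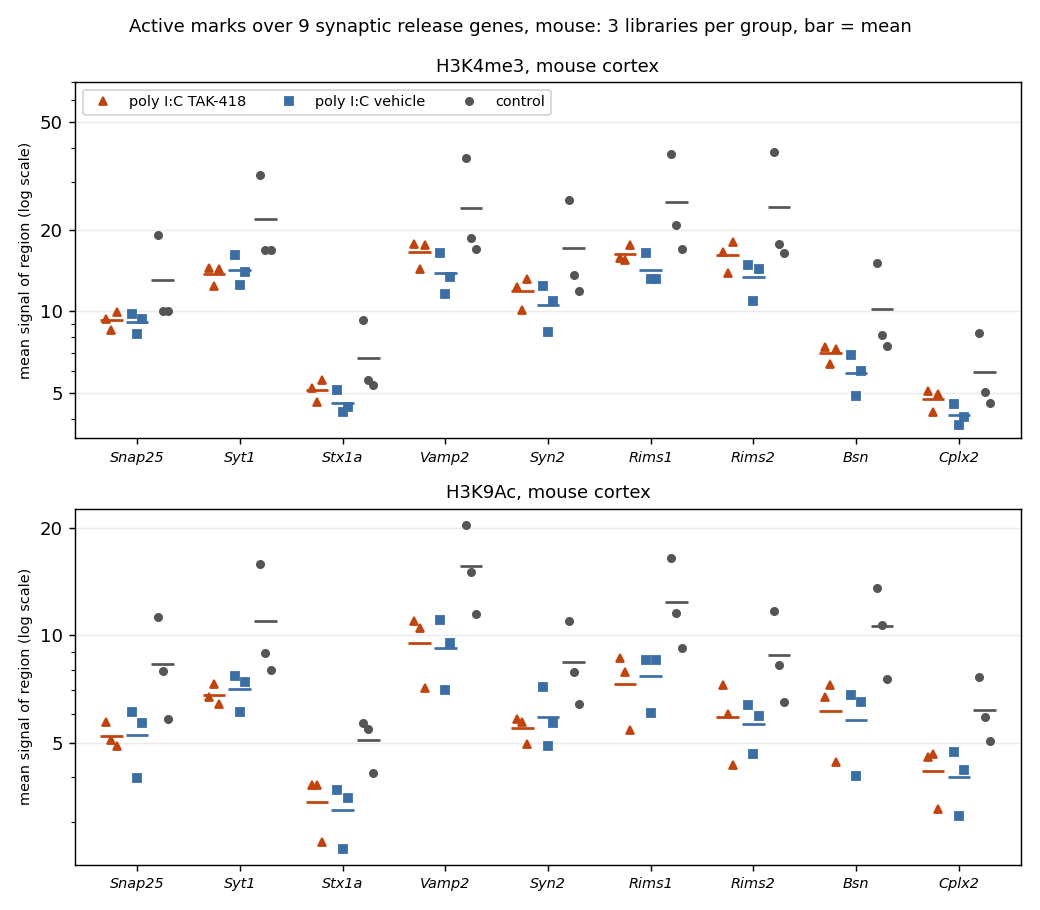
Mean H3K4me3 (top) and H3K9Ac (bottom) signal of each gene's region in mouse cortex on a log scale, with 1 point per library and a bar at the mean of 3 libraries. The highest control point of each gene is control library 1; for Rims2 H3K4me3 it is 38.7, against 16.4 to 17.7 in the other controls.

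Mouse H3K4me3 was also lower over the members in poly I:C mice, with no call. Rims2 had 16.5, 13.8 and 18.0 in poly I:C TAK-418 mice, 14.8, 10.9 and 14.4 in poly I:C vehicle mice, and 38.7, 17.7 and 16.4 in control mice. Control library 1 set much of the gap, and the TAK-418 libraries overlapped the other 2 controls. In poly I:C vehicle mice against controls the changes ran from -0.40 (Cplx2) to -0.72 (Rims2), with limma adjusted p of 0.11 to 0.169, beside a median of -0.49 for all 17446 genes. None of the 9 was called and no gene was (0%; 7856 had an unadjusted p under 0.05). All but Syn2, 8 of 9, lay lower without overlap, against 58.7% of genes, and without control library 3, 8 were called. In poly I:C TAK-418 mice against controls the changes ran from -0.24 (Cplx2) to -0.57 (Syt1), with limma adjusted p of 0.292 to 0.331; 0.00573% of genes were called, and 735 had an unadjusted p under 0.05. Snap25, Syt1 and Bsn, 3 of 9, lay lower without overlap, against 26.8% of genes. Between poly I:C TAK-418 and poly I:C vehicle mice the changes ran from -0.05 (Syt1) to 0.26 (Rims2), with no call among all genes as deposited (0%; 75 at an unadjusted limma p under 0.05). After centring 102 genes were called higher and 94 lower there, and after quantile normalization 112 and 82, with no member among them. In poly I:C vehicle mice against controls, Snap25, Stx1a and Cplx2 lay above 0 under both scalings, by at most 0.10, and Syt1 did after quantile normalization.

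The Polycomb mark H3K27me3 was tested over 4 of the 9 members in rat and 2 in mouse. In rat, where 7816 of 20110 genes passed the filter, the 4 were Bsn and Cplx2 with an interval in 9 of 9 libraries, Rims2 in 7 and Syn2 in 3. Control library 2 had an interval over 7 of the 9 member regions and control library 1 over 5, against 2 to 4 in the other 7 libraries. Cplx2 had 5.99, 2.91 and 3.20 in VPA TAK-418 rats, 3.34, 4.38 and 2.98 in VPA vehicle rats, and 3.63, 5.38 and 2.52 in control rats. The groups overlapped for all 4, with changes from -0.26 to 0.10, and as deposited limma called no member and no gene in any of the 3 comparisons (0%; 0 genes at an unadjusted p under 0.05 in each). TAK-418 library 1 and control library 2 were high over all gene regions (medians 2.65 and 2.90, against 1.51 to 2.03 in the other 7).

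In mouse, Stx1a and Cplx2 were tested for H3K27me3. Stx1a, through its downstream region, had 3.70, 4.41 and 4.50 in poly I:C TAK-418 mice, 10.3, 7.68 and 3.05 in poly I:C vehicle mice, and 4.55, 6.71 and 6.94 in control mice. The vehicle group spread over both others. Cplx2 had 2.62, 2.86 and 3.17 in poly I:C TAK-418 mice, 6.30, 4.66 and 2.53 in poly I:C vehicle mice, and 3.32, 4.35 and 4.38 in control mice. In poly I:C TAK-418 mice against controls both lay lower without overlap (-0.43 and -0.37, limma adjusted p = 0.368 each), as did 60.7% of genes; after centring the changes were -0.02 and 0.04. As deposited, no member and no gene was called in the 3 comparisons (0%; 0 to 73 genes at an unadjusted limma p under 0.05). Vehicle library 3 had 1916 intervals in all, against 3236 to 13596 in the other 8, and without it both genes were called lower in TAK-418 against vehicle mice.

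By mean signal, H3K9me3 differed among the chosen regions in rat. The region inside Syt1, which does not hold the promoter, had the highest control mean, 2.94 ± 0.79 (SD, n = 3). It lay at percentile 91.64 of gene regions, with an interval in 1 of 9 libraries. The other 8 members had control means of 1.37 to 1.85. By highest signal in the region, Syt1 (7.67) lay below Bsn (9.67) and Stx1a (8.00), and their libraries overlapped. Only Bsn was tested, and it had 2.49, 2.51 and 1.88 in VPA TAK-418 rats, 2.26, 2.38 and 2.11 in VPA vehicle rats, and 1.68, 1.98 and 1.91 in control rats. Its change was 0.19 in VPA vehicle rats against controls (limma adjusted p = 0.108), where the groups did not overlap, as in 86.0% of genes, and 45.6% of genes were called; after centring its change was -0.28. In VPA TAK-418 rats against controls it was 0.20 (limma adjusted p = 0.108; 18.1% of genes called), and -0.24 after centring. Against VPA vehicle rats it was 0.02 in VPA TAK-418 rats, and no gene was called (0%; 14 at an unadjusted p under 0.05). Without TAK-418 library 3 Bsn was called against controls in both VPA groups.

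In mouse no member passed the H3K9me3 filter, and poly I:C vehicle library 3 stood alone. It had an interval over 7 of the 9 member regions (all but Snap25 and Syt1), while the other 8 libraries had none over any of the 9. Rims2 had 1.53, 1.24 and 1.42 in poly I:C TAK-418 mice, 1.87, 1.36 and 5.40 in poly I:C vehicle mice, and 1.85, 1.57 and 1.52 in control mice. Syn2 had 2.82 and Vamp2 2.77 in that library, against 1.43 to 2.20 and 1.71 to 2.36 in the other 8. This library also had H3K9me3 intervals on most H3K4me3 regions genome-wide, so no group value that includes it is read here as a level of H3K9me3.

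**Figure D4:**
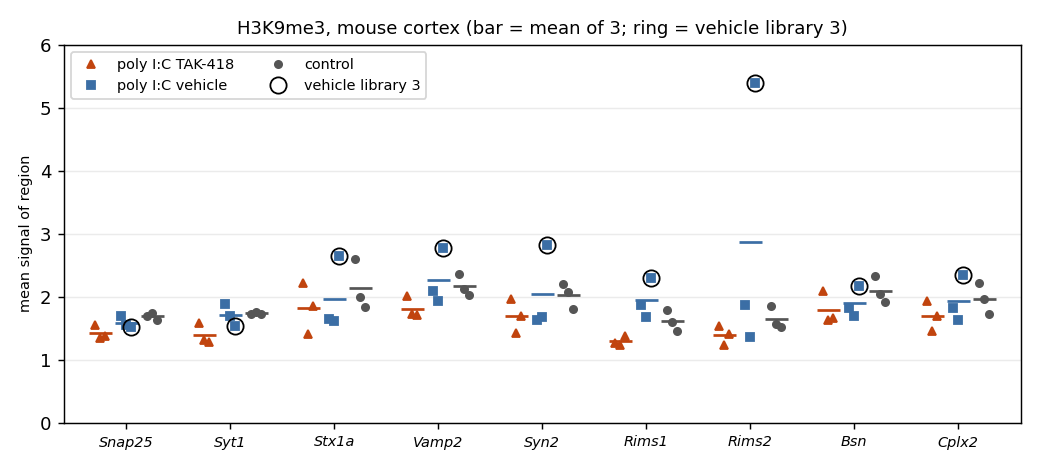
Mean H3K9me3 signal of each gene's region in mouse cortex, with 1 point per library, a bar at the mean of 3 libraries and a ring around poly I:C vehicle library 3. The ringed library lies at 5.40 for Rims2, where the other 8 lie at 1.24 to 1.87.

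Rims1 and Rims2 are long genes known to make shorter isoforms from start sites inside the gene, and each had further regions with H3K4me3 far from its start. In rat Rims1, regions 312599 bp and 341499 bp inside the gene had an H3K4me3 interval in 9 of 9 libraries, with control means of 11.9 ± 4.72 and 3.47 ± 0.43 (SD, n = 3). In rat Rims2 such regions lay 201236 bp (9.55 ± 1.69) and 468236 bp (13.0 ± 2.63) from the start. Mouse showed the same layout. Mouse Rims1 had regions at 271625 bp (9.34 ± 3.82) and 295125 bp (5.11 ± 2.18), and mouse Rims2 at 195613 bp (11.3 ± 4.77) and 462013 bp (12.2 ± 5.12). None of these regions lists a promoter, and those at 312599 bp and 468236 bp in rat and at 271625 bp in mouse hold a CpG island.

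**Figure D5:**
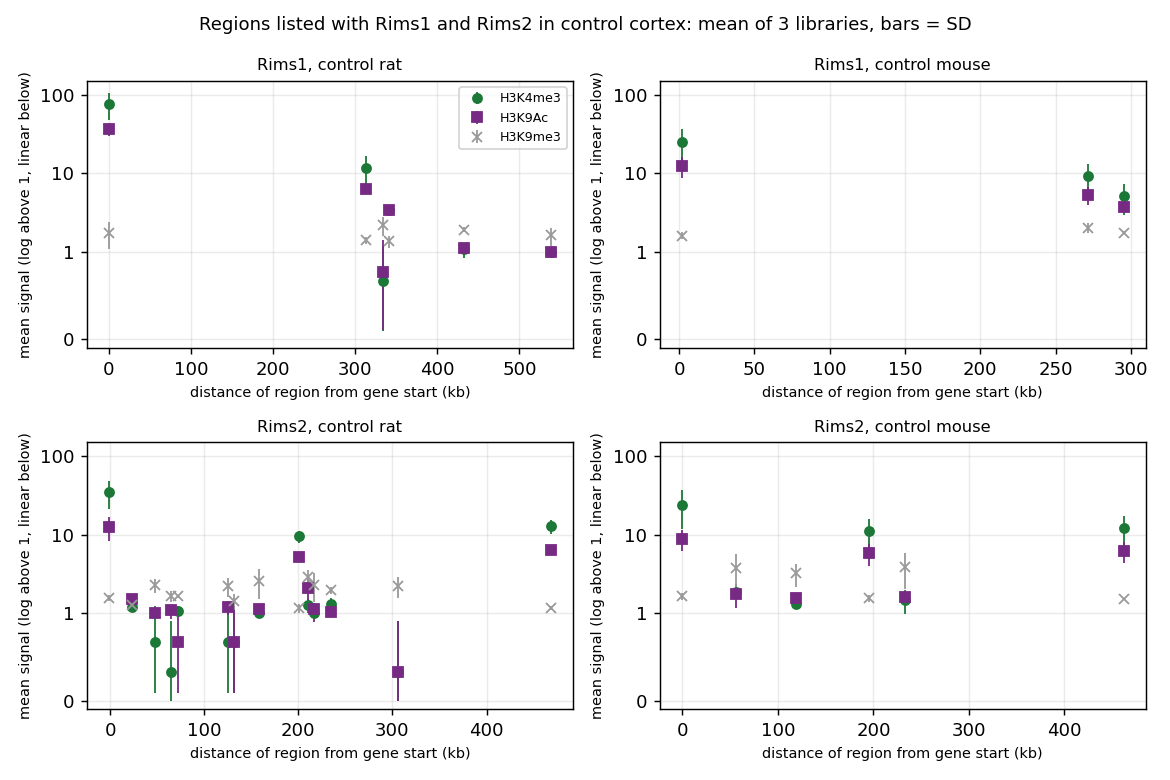
Mean signal of H3K4me3, H3K9Ac and H3K9me3 in control cortex for each region listed with Rims1 or Rims2, against distance from the gene start (bars are the SD of 3 libraries; the axis is logarithmic above 1 and linear below). H3K4me3 is highest at the start and between 9.55 and 13.0 at 2 regions far inside Rims2 in each species.

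Every region was also given its own test, a fit added after the data had been seen. In TAK-418 against vehicle, the H3K9Ac changes at these inner rat Rims regions ran from -0.96 to 0.59. At 341499 bp inside rat Rims1 the change was -0.13 (limma adjusted p = 0.656). At the CpG island region inside rat Rims1 (312599 bp, chr9:27498600-27503199) the signal averaged 6.43 ± 0.60 in VPA TAK-418 rats, 13.9 ± 4.15 in VPA vehicle rats and 6.39 ± 0.54 in control rats (SD, n = 3 each). It fell by 0.96 on the log2 scale under TAK-418 (limma adjusted p = 0.0134), as the Rims1 promoter did. At the region 201236 bp inside rat Rims2 (chr7:77953200-77958999) it averaged 7.61 ± 1.85 in VPA TAK-418 rats, 4.66 ± 0.58 in VPA vehicle rats and 5.20 ± 0.44 in control rats. The change under TAK-418 was 0.59 there (SE 0.251, limma adjusted p = 0.087), against -1.27 at the Rims2 promoter; the difference between the 2 regions was not tested. At 468236 bp the signal averaged 8.44 ± 1.05 in VPA TAK-418 rats, 12.1 ± 4.87 in VPA vehicle rats and 6.47 ± 0.49 in control rats, a change of -0.40 under TAK-418 (limma adjusted p = 0.205).

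Over all other regions of the members, H3K9Ac was called higher in 7 of 9 in VPA vehicle rats against controls. There 90.8% of 17679 regions were called. It was called lower in 1 of 9 under TAK-418 against vehicle, where 9.58% were called. H3K4me3 was called higher in 5 of 8 in VPA TAK-418 rats against controls, where 72.8% were called. H3K9me3 was called higher in 2 of 5 regions in VPA vehicle rats against controls, where 56.2% were called. The 2 lay 432899 bp inside Rims1 (0.68, limma adjusted p = 0.0208) and 64836 bp inside Rims2 (0.44, adjusted p = 0.0285). In VPA TAK-418 rats against controls H3K9me3 was called higher in 3 of 5, where 39.5% were called. The 3 were those 2 and a region 234836 bp inside Rims2. In mouse, H3K9Ac was called lower in 6 of 9 other member regions in poly I:C vehicle mice against controls, where 64.0% were called. They included the mouse Stx1a promoter region, at 4.17 ± 1.11 in poly I:C vehicle mice and 6.91 ± 1.17 in control mice (-0.63, limma adjusted p = 0.032). The highest mean H3K9me3 of any listed member region in control mice lay downstream of Syt1, 517976 bp from its start, at 4.30 ± 2.33. The next lay inside Syt1, 413876 bp from its start, at 4.19 ± 1.66. Regions inside Rims2 (3.93 ± 1.89 and 3.74 ± 1.92) lay within this spread, so the order is not firm. Control library 1 of this mark had 32258 intervals in all, against 8395 and 4460 in control libraries 2 and 3.

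The members' H3K9Ac values were set beside 65 other release genes, a list that took in other synaptotagmins, SNAREs, RIMs, Unc13 and Cadps priming factors, Rab3 GTPases and vesicle transporters. In VPA vehicle rats against controls, 59 of 62 tested were called higher, where 96.5% of all genes were. The median of the 62 was 0.92, and Syt7 and Rab3a (1.14 each) had the smallest p-values. After median centring 7 were called higher and 6 lower, where 1823 and 1636 of all 15368 genes were. Synpr at -0.55 and Syt4 at -0.38 were among the 6. After quantile normalization none of the 62 was called, where 0.735% of all genes were. In VPA TAK-418 against VPA vehicle rats, 6 of 62 were called lower, where 10.4% of all genes were. Cadps, which primes vesicles, fell by 0.95 on the log2 scale (limma adjusted p = 0.0246) and the synaptotagmin gene Syt9 fell by 0.83 (adjusted p = 0.0315). The median of the 62 was -0.52, the same as for all genes. After median centring 3 were called lower and 4 higher, where 8.16% and 9.21% of all genes were. Syt4 was at 0.55 and the vesicle membrane protein gene Synpr at 0.59. After quantile normalization 2 were called higher, Syt4 (0.55) and Synpr (0.31), and 0 lower, where 3.14% of all genes were called higher. In VPA TAK-418 rats against controls none of the 62 was called, with a median of 0.39.

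For rat H3K4me3, 1.64% of all genes were called higher in VPA vehicle rats against controls, and 3 of 63 other release genes were. Among them, Rims4 (0.91, limma adjusted p = 0.0263) and Sv2c, a vesicle glycoprotein gene (0.73, adjusted p = 0.0385), had the smallest p-values. In VPA TAK-418 rats against controls 58 of 63 were called higher, where 85.8% of all genes were. Sv2c was at 16.1 ± 3.82 in VPA TAK-418 rats and 5.87 ± 1.87 in control rats (SD, n = 3 each). Its change was 1.33 (limma adjusted p = 4.75e-08). None of the 63 was called against VPA vehicle rats. After centring or quantile normalization none of the 63 was called in these 3 comparisons. For rat H3K9me3, 1 of 11 was called higher in VPA vehicle rats against controls (Rph3a, 0.33), where 45.6% of all genes were called. In VPA TAK-418 rats against controls 2 of 11 were called higher (Rph3a and Napa), where 18.1% of all genes were called. In mouse, H3K9Ac was called lower in 46 of 63 in poly I:C vehicle mice against controls, where 67.2% of all genes were. The median of the 63 was -0.57, and Cadps2 (-0.78) and Cplx3 (-0.73) had the smallest p-values. After centring or quantile normalization none of the 63 was called. None of the list was called in any other mouse comparison as deposited. For mouse H3K4me3 in TAK-418 against vehicle, Syp was called lower after centring (-0.22, limma adjusted p = 0.0462), as were 94 of all 17446 genes. It was also called lower after quantile normalization (-0.25, limma adjusted p = 0.0405), as were 82 genes.

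The genes whose H3K4me3, H3K9Ac, H3K27me3 and H3K9me3 values ran most like the members' mean over the 36 libraries were Tmem178b (Pearson r 0.811), LOC100910536 (0.802), Hs3st5 (0.778), Pcdh7 (0.771) and Cdh2 (0.760) in rat, among 14902 genes. In mouse they were Grin2a (0.922), 9630013A20Rik (0.887), Mir9-2 (0.886), Gm1715 (0.878) and Pigg (0.856), among 16347. The members themselves correlated with that mean at -0.25 (Syt1) to 0.79 (Rims2) in rat and 0.27 (Snap25) to 0.79 (Bsn) in mouse. Values were taken relative to the library's median and to the gene's mean within each mark. These points share libraries, so the correlations are a description only.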

How the data were processed

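Cortex tissue was fixed with formaldehyde, 30 ug of chromatin entered each ChIP, and sequencing used a NextSeq instrument, per the labels' protocols. BWA 0.7.12 and the builds rn5 and mm10 are named in the submitters' processing notes; no peak caller or scaling step is named in the sources used here. The deposited tables hold, per merged region and library, the mean signal, the highest signal and whether an interval was present, per the file headers; read depth is unknown, so no counting interval is given.

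Each gene took the listed region with the highest mean signal over 36 libraries. limma 3.58.1 (R 4.3.3, trend and robust) was fitted to log2(mean signal + 1) of the 9 libraries of a mark and species. Regions shared with other genes give one value to all of them. No library column was left out, and no 2 libraries were identical; the 2 pooled inputs were not used. The script was tested on simulated data.

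All 9 members are named in full. Of 65 other release genes, those named were among the 2 with the smallest p in a comparison with a call. The 5 genes most like the members are named by Pearson r. The members and lists were chosen with earlier results of these data known.

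Alternatives were median centring, quantile normalization, a pseudocount of 0.5, no filter, the 6 compared libraries alone, a replicate block, the region nearest the gene start, the highest signal and leaving out each library. A test of every region was added after the data had been seen. Same-numbered libraries deviated together (every correlation over 0.1) in 1 of 24 pairs of groups, mouse H3K27me3 in poly I:C TAK-418 and control mice, where the correlations were 0.5, 0.156 and 0.303; elsewhere the numbers were not taken to pair libraries.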

Additional observations from a re-analysis of the deposited data

How the results depend on the processing

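Counts below are members called, out of those tested. Except for centring and quantile normalization, the share of all genes called under each alternative is not given. The counts therefore do not set the members apart from other genes. In rat H3K4me3, VPA vehicle against control, the count of 1 became 0 after median centring, quantile normalization, no filter, the replicate block or the highest signal, and 5 with the 6 compared libraries; leaving out 1 library gave 0 to 6. For VPA TAK-418 against control, the count of 8 became 0 after centring or quantile normalization and 5 with the 6 libraries; leaving out 1 library gave 2 to 8. In rat H3K9Ac, VPA vehicle against control, 8 became 1 after centring and 0 after quantile normalization; leaving out 1 library gave 7 to 8. For VPA TAK-418 against VPA vehicle, 3 lower became 1 higher (Snap25) after quantile normalization, 0 with the 6 libraries, 6 under the replicate block and 7 with the highest signal; leaving out 1 library gave 0 to 8. For VPA TAK-418 against control, 0 became 5 with the 6 libraries, and leaving out 1 library gave 0 to 5. In rat H3K9me3, VPA vehicle against control, 0 became 1 with the 6 libraries; leaving out 1 library gave 0 to 1 there and for VPA TAK-418 against control.

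In mouse H3K9Ac, poly I:C vehicle against control, 5 became 0 after centring, quantile normalization or the highest signal, 3 with no filter, 2 with the 6 libraries and 8 under the replicate block; leaving out 1 library gave 0 to 9. For poly I:C TAK-418 against control, 0 became 9 under the replicate block; leaving out 1 library gave 0 to 9. In mouse H3K27me3, poly I:C TAK-418 against control, 0 became 1 with the 6 libraries; leaving out 1 library gave 0 to 2 for TAK-418 against vehicle. In mouse H3K4me3, poly I:C vehicle against control, leaving out 1 library gave 0 to 8. The other comparisons with a member tested kept 0 when a library was left out; the 3 mouse H3K9me3 comparisons had none. The causes were not tested.

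Changes that turned direction with a call on either side did so after centring or quantile normalization. In rat H3K4me3, VPA TAK-418 against control, Bsn was then at -0.12 and -0.11, Cplx2 at -0.053 and -0.029, Snap25 at -0.034 and -0.041 and Stx1a at -0.057 and -0.061. In rat H3K9Ac, Snap25 was at -0.21 and -0.28 in VPA vehicle against control and at 0.34 and 0.52 in VPA TAK-418 against VPA vehicle, Cplx2 was at -0.02 after centring, and Rims1 at -0.063 after quantile normalization. In mouse H3K9Ac, poly I:C vehicle against control, Cplx2 was at 0.02 and 0.0, Snap25 at 0.007 after quantile normalization and Stx1a at 0.017 after centring. Over all single-gene values, 1837 kept their direction and side of the threshold, 84 became called, 120 lost the call, 146 changed sign with no call on either side and 18 changed sign with one.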
